A study of Homo sapiens with 35 samples.

Results

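The question addressed here was how far TPA changed the effect of losing both SUV39H1 and SUV39H2 on gene expression in U937 cells. It was measured as a difference of differences on the log2 scale, the double-knockout effect under TPA minus the double-knockout effect without TPA, and is called the interaction below. It rests on 12 of the 35 RNA-seq libraries of the series, 3 in each of 4 groups, chosen by line, guide and treatment labels. U937 is a human myeloid leukaemia line with monocytic features, sgControl marks cells given a control guide RNA, and DKO marks cells given guides against SUV39H1 and SUV39H2. TPA is the usual abbreviation of a phorbol ester that activates protein kinase C and drives U937 cells towards macrophage-like cells. The 4 groups were untreated sgControl, untreated DKO, sgControl with TPA and DKO with TPA. No dose or time of TPA is given in the labels. Library names of the untreated DKO group carry a clone number, so this group may stand for 1 clone. Clone and knockout cannot be told apart. Names of the DKO libraries with TPA carry no clone number, so the DKO cells with and without TPA may be different clones. A difference between clones would enter the interaction and cannot be told apart from it. A matching set of SUV39H1 single knockouts (SKO), 3 untreated and 3 with TPA, was used for comparison.

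SUV39H1 and SUV39H2 are histone methyltransferases that place H3K9me3, the mark of heterochromatin that keeps repeats and many lineage genes silent. When double-stranded RNA or cytosolic DNA is sensed, interferons are released, and their receptors act through JAK kinases and STAT and IRF factors on interferon-stimulated genes. In monocytic leukaemia cells phorbol esters bring adhesion, lysosomal and macrophage genes up and slow the cell cycle.

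The 12 libraries held between 33421358 and 42785519 counted reads. Their scaling factors (trimmed mean of M-values, TMM) lay between 0.886 and 1.078, with the 3 TPA-treated DKO libraries lowest. Treated and untreated libraries came in separate count tables, so treatment and table cannot be told apart. Untreated names carry a run date for sgControl and none for DKO, and nothing says that replicates were separate cultures, so the spread behind every p-value is that between these libraries and may be technical. Pairs of replicates differed by more than sampling noise in each of 18 comparisons. Of markers of the labelled lineage, CD33 (mean 62.3 CPM), CD4 (261.1 CPM) and SPI1 (83.4 CPM) were counted in untreated sgControl libraries. So were ANPEP (205.3 CPM), CEBPA (97.1 CPM), LYZ (264.4 CPM), PTPRC (134.4 CPM) and ITGB2 (594.1 CPM). FCGR1A (9.64 CPM), CSF1R (4.66 CPM) and TYROBP (3.95 CPM) were lower, and MPO (0.322 CPM) and CD14 (0.0924 CPM) were near 0. CPM, edgeR's unit of level, is a gene's count scaled to a common library total after TMM. Adjusted p-values below are from edgeR's quasi-likelihood test with Benjamini-Hochberg adjustment over all 16989 genes tested. Standard errors (SE) are the absolute log2 fold change divided by the square root of that test's F statistic, and are rough at low counts.

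The edited genes themselves were counted in every library. SUV39H1 stood at 66.6, 67.3 and 61.0 CPM in untreated sgControl, 80.5, 81.3 and 81.2 in untreated DKO, 35.0, 37.2 and 36.6 in sgControl with TPA, and 22.6, 22.1 and 22.6 in DKO with TPA. Its level was therefore above control without TPA (log2 0.32, adjusted p = 4.1e-07) and below it with TPA (-0.69, adjusted p = 9.8e-14), and the interaction was -1.01 ± 0.07 (SE). SUV39H2 stood at 39.8, 42.8 and 43.7 CPM, then 32.5, 34.1 and 29.6, then 19.1, 20.0 and 20.6, then 10.7, 9.34 and 9.84 in the same order of groups. Its interaction was -0.61 ± 0.10 (SE, adjusted p = 2.3e-06). A guide-directed edit can leave the transcript in place, so these levels do not check the knockout.

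The promoter windows of 5 genes on which the results turn are shown because they hold short motifs of the factors named with each group below. They are the 250 bases before the RefSeq start, read on the gene's strand in GRCh38.p14, with motif matches in capitals. IFIT1 (chr10:89392373-89392622, plus strand) has 2 matches of the interferon-stimulated response element (ISRE, searched on both strands as GAAA, any 2 bases and GAAA), GBP1 (chr1:89065209-89065458, minus strand) has 1 and TAP1 (chr6:32853705-32853954, minus strand) has 2 that overlap. E2F1 (chr20:33686386-33686635, minus strand) has 1 match of an E2F site (TTTGGCGC), and KIF11 (chr10:92592880-92593129, plus strand) has 1 match of the cell cycle homology region (CHR, TTTGAA) on the opposite strand.
IFIT1: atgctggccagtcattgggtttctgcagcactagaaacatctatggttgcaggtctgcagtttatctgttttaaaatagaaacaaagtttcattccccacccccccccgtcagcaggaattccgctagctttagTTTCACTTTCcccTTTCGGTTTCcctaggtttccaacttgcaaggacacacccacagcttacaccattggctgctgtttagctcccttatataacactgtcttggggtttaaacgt
GBP1: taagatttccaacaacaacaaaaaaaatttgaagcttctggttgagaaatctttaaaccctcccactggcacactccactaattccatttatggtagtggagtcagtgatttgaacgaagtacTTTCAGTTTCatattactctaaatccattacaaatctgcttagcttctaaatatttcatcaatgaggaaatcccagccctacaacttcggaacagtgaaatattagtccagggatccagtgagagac
TAP1: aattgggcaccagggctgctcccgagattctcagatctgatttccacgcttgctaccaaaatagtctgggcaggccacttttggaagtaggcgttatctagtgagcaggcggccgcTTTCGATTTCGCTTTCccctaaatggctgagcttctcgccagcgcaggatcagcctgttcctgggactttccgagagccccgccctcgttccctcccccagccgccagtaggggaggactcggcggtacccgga
E2F1: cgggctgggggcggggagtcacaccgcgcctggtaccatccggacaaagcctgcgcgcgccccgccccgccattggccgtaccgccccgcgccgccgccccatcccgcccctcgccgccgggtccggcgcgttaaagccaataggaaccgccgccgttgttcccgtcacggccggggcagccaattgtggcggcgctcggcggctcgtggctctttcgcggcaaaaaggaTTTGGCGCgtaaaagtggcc
KIF11: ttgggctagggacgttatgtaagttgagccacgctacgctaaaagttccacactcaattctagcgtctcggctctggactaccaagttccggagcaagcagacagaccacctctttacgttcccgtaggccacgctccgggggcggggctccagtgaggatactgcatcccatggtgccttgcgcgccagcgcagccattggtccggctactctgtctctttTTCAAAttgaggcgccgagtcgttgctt

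Windows were matched by symbol for 11189 of the genes tested, and matches of different motifs were counted apart and may overlap. The ISRE letters were found in 27 of 46 interferon-stimulated genes with a window (58.7%) and in 7 of 18 MHC class I genes (38.9%), against 2.64% of all tested genes with one. They were in 6.85% of the 803 windows of genes whose interaction was higher by 2-fold or more and in 1.80% of the 890 of those lower by as much. The E2F letters were in 7 of 35 S phase genes (20.0%), against 0.840% of tested genes, and the CHR letters in 19 of 34 mitosis genes (55.9%), against 8.93%. In the same 2-fold sets the E2F letters were in 0.125% of the higher and 2.13% of the lower windows. The CHR letters did not differ between these sets, with 10.8% and 10.7%, and were also in 22.2% of macrophage gene windows. A match describes the letters only, and RSAD2, MX1 and OAS1 have no ISRE match in this window.

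Of the 16989 genes, 3695 (21.7%) had a higher and 4730 (27.8%) a lower interaction, so that 49.6% were called in 1 direction or the other. Changes of 2-fold or more were found in 1170 of the higher and 1511 of the lower genes. The median over all genes was -0.0759, and scaling by DESeq2's size factors moved it by 0.0611 to -0.0148. Those size factors gave 4161 higher and 4210 lower interactions, so the excess of lower calls depends on the scaling. For scale, the DKO effect was called in 61.5% of genes without TPA (5222 higher, 30.7%, and 5232 lower, 30.8%) and in 67.4% with TPA (5581 higher, 32.9%, and 5870 lower, 34.6%). The TPA effect was called in 67.7% of genes in sgControl (34.6% higher and 33.2% lower) and in 73.1% in DKO (36.9% higher and 36.2% lower).

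The called interactions fall into 5 main patterns. In 2694 genes (32% of those called) the DKO effect had the same sign in both conditions and was larger under TPA, with 1132 higher and 1562 lower. In 1873 (22.2%) the DKO effect was called only under TPA, and in 1278 (15.2%) only without it. The effect kept its sign but was smaller under TPA in 1255 genes (14.9%), and it was called with opposite signs in 1243 (14.8%). A lower interaction is therefore not always a loss. In CPM rather than log2, 785 of the 4730 genes called lower had a difference of differences above 0, while 65 of the 3695 called higher had one below 0.

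**Figure D1:**
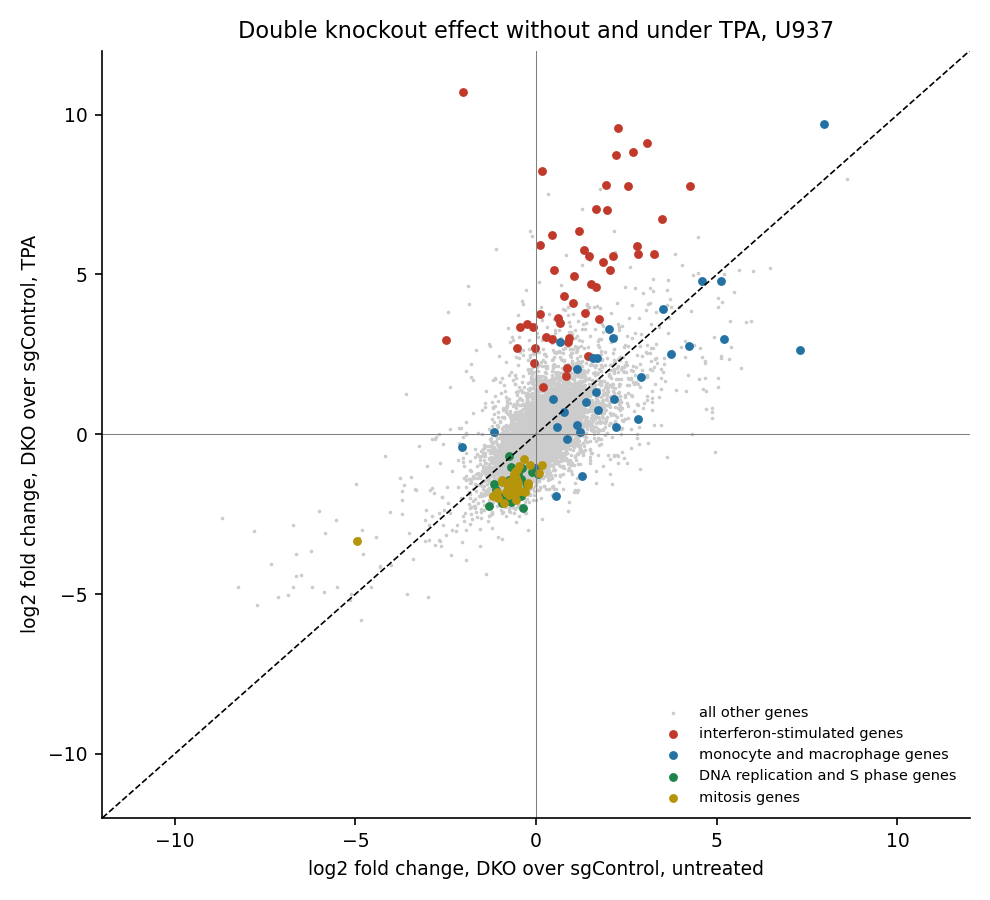
Each point is 1 of 11204 genes, those with more than 3 reads in every group and an average log2 CPM from 1 upwards, with the DKO effect (log2 fold change against sgControl) without TPA on the x axis and with TPA on the y axis. The dashed line marks equal effects, and TAP1, whose interaction was 3.38, lies above the line.

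Lists of RNA quality and of other cell types moved with the same contrast. All 13 mitochondrially encoded genes had a lower interaction (median -0.626), and their summed level was 25310 to 25600 CPM in DKO with TPA against 47640 to 48820 in sgControl with TPA, 43200 to 47890 in untreated DKO and 51560 to 56050 in untreated sgControl. Of 82 ribosomal protein genes 52 were lower (63.4%) and 6 higher, with sums of 22900 to 25300, 41020 to 42450, 46490 to 48900 and 59600 to 65790 CPM in the same order. Clustered histone genes, whose transcripts largely lack poly(A) tails, were higher in 15 of 26 and lower in 2, with sums of 143.2 to 152.8 CPM in DKO with TPA and at most 38.4 elsewhere. Lymphoid markers were higher in 10 of 17 and lower in 4, with sums of 543.6 to 587.2 CPM in DKO with TPA and 343.5 to 490.8 elsewhere. These sums include CD4, which was also used above as a marker of the labelled lineage. CD4 had means of 261.1, 176.4, 172.7 and 103.8 CPM in untreated sgControl, untreated DKO, sgControl with TPA and DKO with TPA. The T cell genes given next had few reads. CD3E had 14, 54 and 36 reads in the untreated sgControl libraries, 0 in untreated DKO and in sgControl with TPA, and 8 over DKO with TPA. Over untreated sgControl, untreated DKO, sgControl with TPA and DKO with TPA, CD3D had 28, 0, 16 and 15, CD7 80, 0, 6 and 10, TRBC1 40, 0, 0 and 0, and CD96 88, 0, 76 and 34, with the most in untreated sgControl in each. GNLY, another lymphoid marker, had 0, 0, 134 and 229 reads over the same groups. Megakaryocyte markers, 0 of 8 higher and 1 lower, summed to at least 183.4 CPM in each DKO library with TPA and to 22.1 to 24.6 in sgControl with TPA. Erythroid (3 tested), stromal (4) and dendritic (7) markers had at most 1 member called higher. The part of these lists in the results that follow was not tested.

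Interferon genes, the ligands at the head of the response, were counted almost only in DKO cells with TPA. IFNB1, which encodes interferon beta, had 81, 102 and 98 reads in these 3 libraries and 0 in the other 9. With 3 reads over a group taken as the floor, this was 115-fold over sgControl with TPA and 102-fold over untreated DKO. IFNL1, a type III interferon, had 92, 102 and 83 reads there, 2 in untreated DKO and 0 in both sgControl groups. At the same floor it was 114-fold over sgControl with TPA. IFNL2 and IFNL3 had 18 reads each, all in DKO with TPA, and their sequences are near-identical, so reads between them are uncertain. The floors cover no more than counting error. Where each read of a pair is counted singly, a fragment can be counted more than once, so the floors may be too low and the folds too high.

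Of 24 sensors of nucleic acids and their partners tested, 17 had a higher interaction (70.8%) and 3 a lower one (12.5%), with a median of 0.698. TLR3, an endosomal receptor of double-stranded RNA, stood at 0.514, 1.06 and 0.671 CPM in untreated sgControl, 0.111, 0.157 and 0.341 in untreated DKO, 0.499, 0.325 and 0.523 in sgControl with TPA, and 10.2, 11.1 and 12.6 in DKO with TPA. The DKO and sgControl libraries did not overlap in either condition and lay in opposite order, and the interaction was 6.54 ± 0.44 (SE, adjusted p = 5e-15). AIM2, a sensor of cytosolic DNA, reached 75.3, 74.7 and 83.2 CPM in DKO with TPA against 9.40, 10.0 and 9.41 in sgControl with TPA, an interaction of 2.82 ± 0.20. DDX58, which encodes the RNA sensor RIG-I, was higher too (3.85 ± 0.86, adjusted p = 0.00028), with under 1 CPM in the other 3 groups. The adaptor MAVS and the RNase H2 subunit RNASEH2B had interactions of -0.39 ± 0.05 and -0.62 ± 0.07.

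Receptor and JAK-STAT genes were mixed, with 13 of 23 higher (56.5%) and 2 lower (8.70%). STAT2, a factor that carries the interferon signal to the nucleus, was at 13, 14.6 and 15.8 CPM in untreated sgControl, 43.6, 41.6 and 45.2 in untreated DKO, 29.3, 27.9 and 30 in sgControl with TPA, and 433.2, 485.0 and 465.3 in DKO with TPA. DKO lay above sgControl in both conditions, and the step was larger under TPA (interaction 2.40 ± 0.08, adjusted p = 5.6e-24). IRF7, the factor that amplifies interferon production, had 1.61 ± 0.16, from 8.12, 8.19 and 9.10 CPM in sgControl with TPA to 217.2, 259.1 and 259.0 in DKO with TPA. SOCS3, a feedback inhibitor of JAK signalling, had 3.41 ± 0.33. The receptor chains IFNAR1 and IFNGR2 had interactions of 0.29 and 0.66, both called. IRF9, the DNA-binding partner of STAT2, had an interaction of -0.23 that did not pass the test, and the kinase TYK2 had -0.20, which did.

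All 55 interferon-stimulated genes tested had a higher interaction, against 21.7% of all genes, with a median of 3.54. The list was chosen with earlier results of these data known, so this share describes the list and is not an independent test. The smallest was SP100 at 0.97 ± 0.05. Of the 55, 52 also passed the filter when the DKO libraries with TPA were left out of it, and all 52 were called higher, with a median of 3.52, where 22% of genes were. The list's 56th gene, EPSTI1, had 16, 0, 4 and 6 reads in the 4 groups and was not tested. All 55 had their highest mean level in DKO with TPA, as had 35.4% of all genes. Without TPA the DKO effect on the same list was smaller and less uniform, with 37 higher, 7 lower and a median of 0.891. Over all genes that effect was called higher in 30.7% and lower in 30.8%. In sgControl cells TPA itself brought 30 up and 12 down (median 0.603), and in DKO cells it brought all 55 up (median 4.43). Over all genes TPA brought 34.6% up and 33.2% down in sgControl, and 36.9% up and 36.2% down in DKO.

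The antiviral genes at the top of the list were low in all groups but 1. IFIT1 (chr10:89392546-89406487, hg38), which binds foreign RNA and holds the tandem ISRE letters shown above, stood at 2.43, 1.84 and 1.45 CPM in untreated sgControl, 11.8, 12.3 and 13.4 in untreated DKO, 3.37, 2.48 and 2.25 in sgControl with TPA, and 1240, 1198 and 1303 in DKO with TPA. Its DKO effect went from 2.69 to 8.84, an interaction of 6.15 ± 0.20 (SE, adjusted p = 1.6e-24). RSAD2 (chr2:6865557-6898239), which encodes the antiviral enzyme viperin, went from 1.21, 1.14 and 0.627 CPM in sgControl with TPA to 748.4, 766.3 and 808.9 in DKO with TPA, with an interaction of 7.32 ± 0.34. IFIT2 and the ubiquitin-like modifier ISG15 had interactions of 6.53 ± 0.20 and 5.07 ± 0.10. OAS1, which makes the activator of RNase L, was nearer to even in sgControl with TPA and untreated DKO (13.8, 11.5 and 9.88 against 13.6, 16.1 and 14 CPM) and reached 560.6, 590.3 and 602.8 with both, an interaction of 2.37 ± 0.19.

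Some members were below control in DKO cells without TPA and above it with TPA. GBP1 (chr1:89051882-89065360), a guanylate-binding GTPase of cell-autonomous immunity, stood at 0.467, 0.784 and 0.559 CPM in untreated sgControl, 0.111, 0.104 and 0.227 in untreated DKO, 0.237, 0.0928 and 0 in sgControl with TPA, and 190.7, 190.9 and 200 in DKO with TPA. Its DKO effect was -2.03 ± 0.44 (adjusted p = 0.00013) without TPA and 10.70 ± 0.16 with it, so the interaction, 12.73 ± 0.56, sets a high level against levels of under 1 CPM. GBP5 did likewise at higher counts, from 10.9, 9.91 and 10.7 CPM to 2.61, 1.54 and 1.45 without TPA and from 6.08, 6.47 and 6.56 to 46.6, 50.0 and 52.6 with it (interaction 5.46 ± 0.20). MX2, a restriction factor of retroviruses, was at 231.2, 226.5 and 221.3 CPM in untreated sgControl and 155.0, 158.1 and 155.3 in untreated DKO. With TPA it was at 156.1, 158.4 and 153.8 in sgControl and 957.1, 1036 and 1044 in DKO, an interaction of 3.23 ± 0.05. IFI44L was counted at 10, 2 and 16 reads over the first 3 groups and at 8890 over the 3 DKO libraries with TPA.

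**Figure D2:**
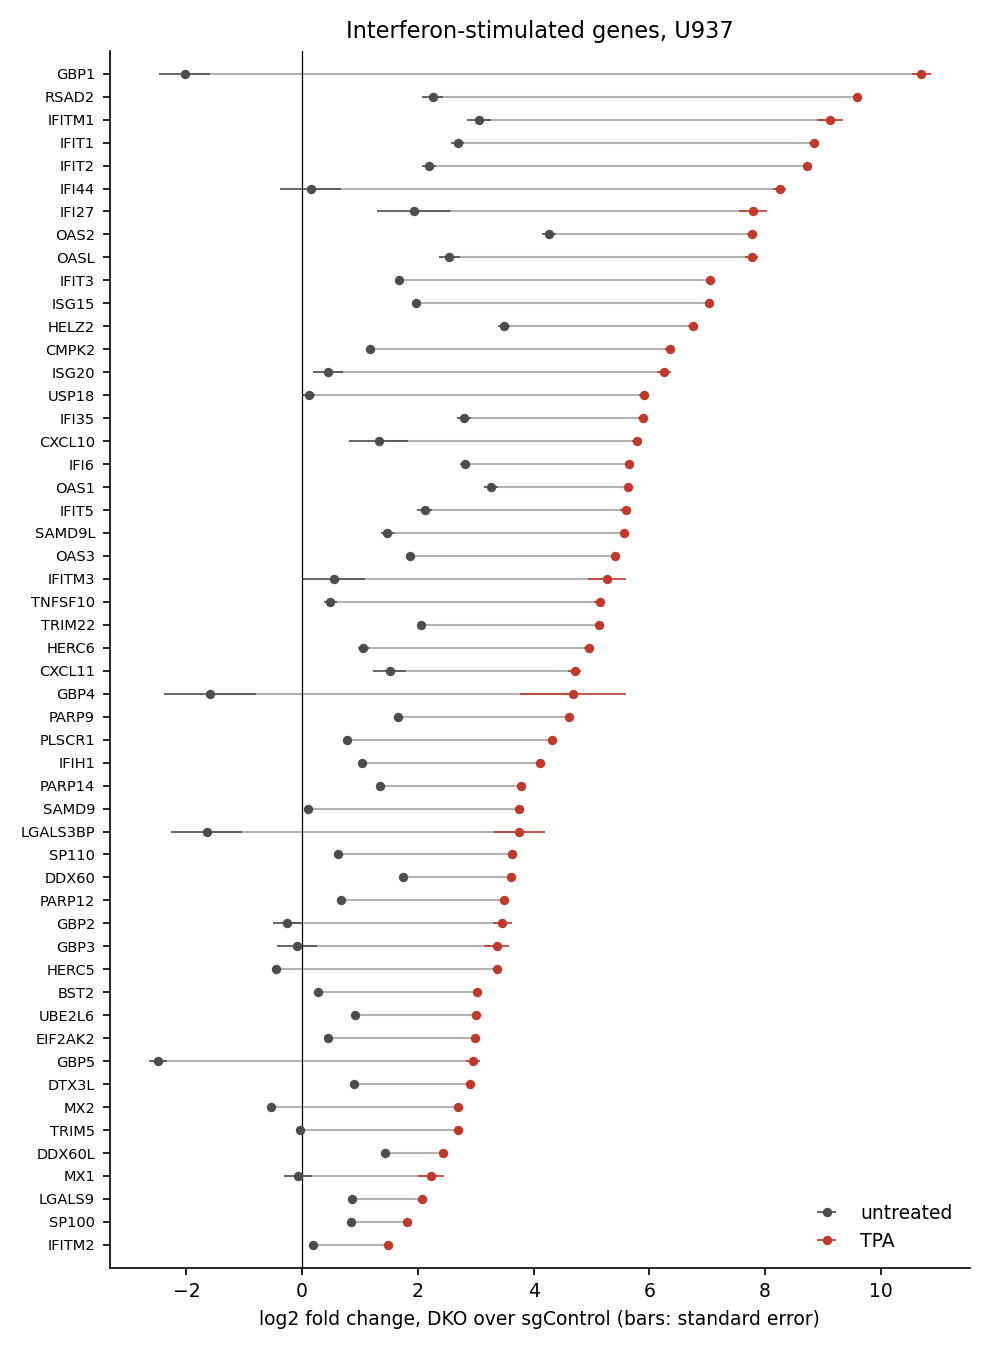
For each of 52 interferon-stimulated genes with more than 3 reads in every group, the DKO effect (log2 fold change, with bars of 1 SE) is shown without TPA in grey and with TPA in red. Every red point lies right of its grey point, by 0.97 in SP100 and by 12.73 in GBP1.

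MHC class I presentation genes were higher nearly throughout, with 21 of 22 genes higher (95.5%), 1 lower and a median of 1.34. HLA-B was at 426.0, 420.9 and 415.8 CPM in untreated sgControl, 904.1, 936.7 and 922.5 in untreated DKO, 537.1, 532.4 and 547.8 in sgControl with TPA, and 3194, 3175 and 3418 in DKO with TPA. The 4 groups did not overlap, and the interaction was 1.47 ± 0.05 (SE, adjusted p = 5.1e-25). The light chain gene B2M and the class I transactivator NLRC5 had interactions of 1.28 ± 0.04 and 1.98 ± 0.10. TAP1, the peptide transporter whose window is shown above, lay between 41.5 and 58.5 CPM in the other 9 libraries and at 567.6, 613.2 and 629.6 in DKO with TPA (interaction 3.38 ± 0.07, adjusted p = 5.2e-30). TAPBPL, a peptide editor, was the lower one (-0.55 ± 0.20, adjusted p = 0.02), with levels of at most 11 CPM, and its call was lost without sgControl replicate 1 or sgControl TPA replicate 1. Class I heavy chains are near-identical in places, so their separate counts are less certain than their sum.

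MHC class II genes did not move as a group, with 3 of 13 higher (23.1%), 3 lower (23.1%) and a median of -0.253. Over all genes 21.7% were higher and 27.8% lower. In DKO cells 11 of them were above control without TPA and 10 with it, against 30.7% and 32.9% of all genes. CIITA, the class II transactivator, was at 1.31, 1.20 and 1.45 CPM in untreated sgControl, 5.91, 5.17 and 6.73 in untreated DKO, 0.807, 1.18 and 1.52 in sgControl with TPA, and 0.783, 0.752 and 0.709 in DKO with TPA. The untreated DKO libraries were thus the high ones, and the interaction was -2.80 ± 0.37. The invariant chain gene CD74 was highest there too, at 92.6, 96.5 and 94.6 CPM in untreated DKO against 30.1, 29.0 and 27.6 in DKO with TPA (interaction -0.76 ± 0.09). CTSS, the protease that trims the invariant chain, was higher (0.97 ± 0.05).

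Inflammatory genes were split, with 17 of 28 NF-kB and cytokine genes higher (60.7%), 4 lower (14.3%) and a median of 0.847. IL1B, the inflammatory cytokine, was at 6.44, 5.99 and 6.96 CPM in untreated sgControl, 2.89, 4.02 and 2.61 in untreated DKO, 72.4, 72.8 and 70.5 in sgControl with TPA, and 386.3, 397.5 and 397.9 in DKO with TPA. Its DKO effect turned from -1.01 to 2.45, an interaction of 3.47 ± 0.11 (SE, adjusted p = 7.5e-25). Its antagonist IL1RN turned with it, from 8.69 to 10.7 CPM in untreated DKO to between 929.2 and 1027 in DKO with TPA (interaction 3.72 ± 0.09). IL6 had 30, 21 and 30 reads in DKO with TPA and 0 in all others, 33.3-fold over sgControl with TPA at the floor of 3 reads. TNF went the other way: without TPA it stood at 2.38 to 3.16 CPM in sgControl and 2.36 to 3.18 in DKO, and with TPA at 77.8, 72.8 and 72.8 in sgControl and 43.7, 39.8 and 44.0 in DKO (interaction -0.80 ± 0.14, adjusted p = 1.1e-05). The NF-kB inhibitor NFKBIA was higher (0.66 ± 0.09), and the deubiquitinase TNFAIP3 had an interaction of -0.05 ± 0.09 that did not pass.

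Of 23 chemokine genes, 15 were higher (65.2%) and 2 lower (8.70%), with a median of 2.37. It was 2.79 with members at 3 reads or fewer in a group recomputed with the floor of 3 reads. Only 20 of the 23 also passed the filter without the DKO libraries with TPA, of which 14 were higher, with a median of 1.37. CCL8, a monocyte attractant, was counted at 0, 8 and 18 reads over the first 3 groups and at 72936 in DKO with TPA. CXCL10, an attractant of activated T cells, was at 6.13, 5.82 and 5.28 CPM in sgControl with TPA and 310.8, 305.0 and 333.3 in DKO with TPA, with under 1 CPM in untreated cells (interaction 4.46 ± 0.70, adjusted p = 1.5e-06). CCL4 was at 6.22, 4.43 and 5.23 CPM against 272.8, 299.5 and 304.5 in the TPA groups, but has near-identical copies. CCL2 already answered to TPA in sgControl, where it was at 1177, 1170 and 1128 CPM, and stood at 3829, 3943 and 3981 in DKO with TPA (interaction 1.23 ± 0.06). Of the 4 groups, CX3CR1, the fractalkine receptor, was high only in untreated DKO, at 21.5, 20.0 and 19.7 CPM. The other 9 libraries of these groups lay at 2.62 to 3.18 CPM, and the interaction was -2.79 ± 0.17. In SKO the mean of CX3CR1 was 15.4 CPM without TPA and 6.08 with it, with an SKO interaction of -1.29.

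Among immune ligands and checkpoint genes, 11 of 23 were higher (47.8%) and 8 lower (34.8%), against 21.7% and 27.8% of all genes. CD274, which encodes the ligand PD-L1, was at 0, 0.186 and 0.105 CPM in sgControl with TPA and 14, 12.8 and 12.9 in DKO with TPA (interaction 5.76 ± 0.79, adjusted p = 1.2e-07). The tryptophan-degrading enzyme gene IDO1 had 0, 0, 2 and 154 reads over the 4 groups. CD48, a ligand of a natural killer cell receptor, had an interaction of 4.56 ± 0.27.

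Macrophage genes showed the other side of the log2 scale. Of 44 surface and effector genes, 10 were higher (22.7%, against 21.7% of all genes) and 20 lower (45.5%, against 27.8%), with a median of -0.596. It was -0.324 with members at 3 reads or fewer in a group recomputed with the floor of 3 reads. Over the 43 that passed the filter without the DKO libraries with TPA it was -0.361. Yet 33 of the 44 genes had their highest mean level in DKO with TPA, as had 35.4% of all genes. DKO cells were above control in 35 of them without TPA (median 2.07) and in 33 with it (median 1.37). Over all genes the DKO effect was called higher in 30.7% without TPA and in 32.9% with it. Of the 20 called lower, 9 had a CPM difference of differences above 0. ITGAM, the alpha chain of a complement receptor, was at 3.76, 4.22 and 4.42 CPM in untreated sgControl, 133.6, 135.7 and 134.9 in untreated DKO, 98.2, 95.6 and 97.5 in sgControl with TPA, and 312.9, 349.3 and 333.2 in DKO with TPA. The 4 groups did not overlap and DKO with TPA was the highest, while the log2 interaction was -3.26 ± 0.08 (SE, adjusted p = 8.3e-29) and the CPM difference of differences was 104.1. CD180, a receptor related to the toll-like family, had the same order, with 77.7, 87.1 and 87.5 CPM in DKO with TPA and an interaction of -4.67 ± 0.20.

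LYZ, lysozyme, was at 269.0, 258.8 and 265.3 CPM in untreated sgControl, 368.4, 387.0 and 396.3 in untreated DKO, 627.0, 637.5 and 610.7 in sgControl with TPA, and 177.8, 150.7 and 160.3 in DKO with TPA. TPA thus raised it in sgControl and lowered it in DKO, with an interaction of -2.48 ± 0.06 and a CPM difference of differences of -581.6. The scavenger receptor CD36 had a CPM difference of differences of -19.5 and an interaction of -2.34 ± 0.05, with 1037 to 1061 CPM in DKO with TPA and 748.6 to 772.9 in sgControl with TPA. FCGR2A, an Fc receptor with close copies, was higher, at 34.5, 33.3 and 33.0 CPM in sgControl with TPA and 238.9, 251.8 and 252.4 in DKO with TPA (2.23 ± 0.08). SIGLEC1, a sialic acid receptor that is also induced by interferon, was at 61.0, 62.5 and 56.4 CPM in untreated DKO and 1173, 1460 and 1363 in DKO with TPA, against at most 2.61 in sgControl (interaction 1.74 ± 0.56, adjusted p = 0.0091). The scavenger receptor MSR1 was counted at 0, 0, 62 and 8838 reads over the 4 groups.

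**Figure D3:**
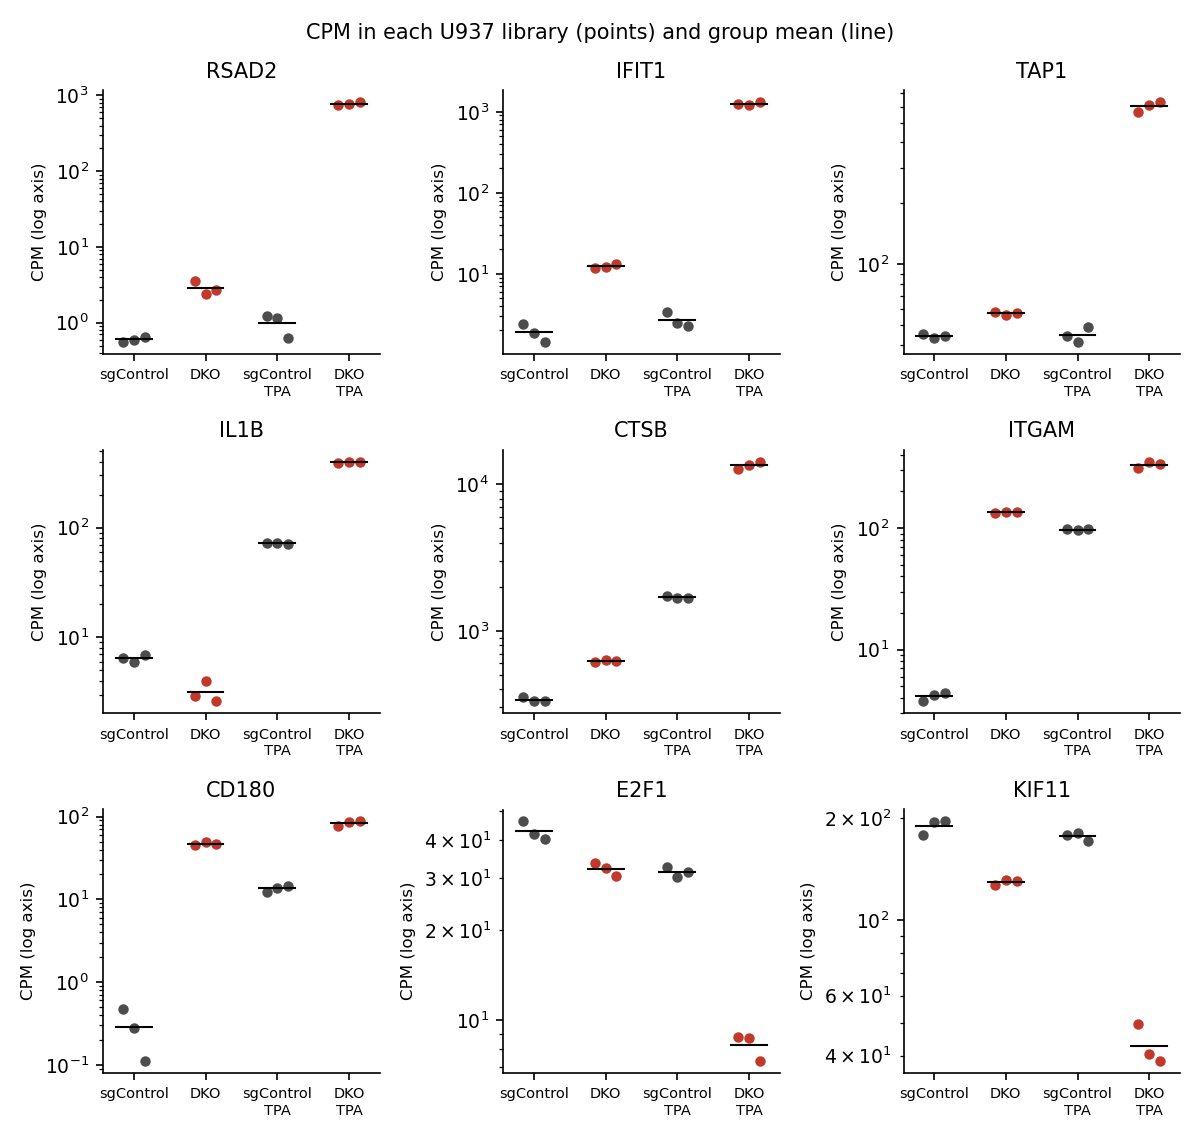
Levels in CPM on a log axis of RSAD2, IFIT1, TAP1, IL1B, CTSB, ITGAM, CD180, E2F1 and KIF11, with 1 point per library and a line at the mean of each of the 4 groups. DKO with TPA is the highest group in the first 7 genes, and the lowest in E2F1 and KIF11.

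Of 27 lysosomal genes 19 were higher (70.4%) and 6 lower (22.2%), with a median of 0.377. In DKO with TPA 26 were above control, as were 32.9% of all genes. CTSB, a cysteine protease, was at 354.4, 330.1 and 332.7 CPM in untreated sgControl, 611.5, 634.3 and 624.9 in untreated DKO, 1728, 1675 and 1686 in sgControl with TPA, and 12840, 13630 and 14230 in DKO with TPA. Its interaction was 2.12 ± 0.04 (SE, adjusted p = 5.2e-30). NPC1, the cholesterol exporter of the lysosome, was called lower (-2.10 ± 0.05) although its level was highest in DKO with TPA, at 2674, 3004 and 2846 CPM. CTSD, an aspartic protease, was likewise lower on the log2 scale (-0.67 ± 0.06) and highest in DKO with TPA. Of 25 matrix genes 9 were higher (36.0%), 4 were lower (16%) and the others were not called, against 21.7% higher and 27.8% lower over all genes. SPP1, osteopontin, was under 1 CPM in the 6 untreated libraries, at 5193, 5053 and 5012 with TPA in sgControl and at 29640, 29090 and 30870 in DKO (interaction 2.65 ± 0.19), where it made up 2.91% to 3.09% of the scaled library total. The matrilysin gene MMP7 was at 5.03, 4.87 and 3.66 CPM against 374.9, 367.0 and 390.1 in the TPA groups. MMP9, the gelatinase, went from 708.3, 722.8 and 731.1 CPM in sgControl with TPA to 70.3, 47.3 and 42.8 in DKO with TPA, but was also low in untreated DKO (mean 0.261 against 7.38), and its interaction of 1.03 ± 0.47 did not pass (adjusted p = 0.07).

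Granule, progenitor and signalling lists were divided. Granule genes were higher in 6 of 22 (27.3%) and lower in 9 (40.9%), and progenitor genes in 6 (26.1%) and 11 (47.8%) of 23. Over all genes the shares were 21.7% higher and 27.8% lower. CTSG, the neutrophil protease cathepsin G, was at 2669, 2428 and 2451 CPM in untreated sgControl, 1267, 1283 and 1243 in untreated DKO, 34.2, 31.8 and 33.4 in sgControl with TPA, and 103.9, 96.0 and 110.8 in DKO with TPA. DKO was below control without TPA and above it with TPA (interaction 2.64 ± 0.06). MYB, a factor of immature haematopoietic cells, showed the opposite, at 182.5, 183.3 and 176.9 CPM in sgControl with TPA and 86.7, 81.8 and 82.4 in DKO with TPA, after 522.7 to 542.6 and 558.3 to 584.3 without it (interaction -1.21 ± 0.05, adjusted p = 1e-21). Of 27 genes of protein kinase C and its regulators 5 were higher (18.5%) and 12 lower (44.4%). PRKCB, a phorbol ester-responsive kinase, had an interaction of -0.87 ± 0.04, with levels of 479.5, 481.1 and 473.5 CPM in sgControl with TPA and 581.7, 590.0 and 585.4 in DKO with TPA. Of 26 immediate early genes 15 were higher (57.7%) and 5 lower (19.2%), led by EGR1 (3.44 ± 0.14) and the phosphatase gene DUSP1 (2.56 ± 0.19). EGR1 stood at 15.3, 15.8 and 14.7 CPM, then 5.03, 3.76 and 5.00, then 9.55, 9.84 and 12.1, then 32.4, 35.9 and 33.9 in the 4 groups.

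Cell cycle genes moved as a block in the opposite direction to the interferon response. Of 40 S phase genes 38 had a lower interaction (95.0%, against 27.8% of all genes) and none a higher one, with a median of -1.02, and all 40 had their lowest mean level in DKO with TPA, as had 35% of all genes. POLA2 and GINS3 were the 2 not called. E2F1, the factor that drives S phase genes, was at 46.3, 42.2 and 40.4 CPM in untreated sgControl, 33.5, 32.4 and 30.5 in untreated DKO, 32.6, 30.2 and 31.3 in sgControl with TPA, and 8.79, 8.75 and 7.33 in DKO with TPA. With knockout or TPA alone it stood between 30.2 and 33.5 CPM, and the interaction was -1.50 ± 0.10 (SE, adjusted p = 5.3e-15). PCNA, the replication clamp, did not pass for the knockout without TPA (0.04, adjusted p = 0.34), and stood at 388.5, 386.2 and 389.3 CPM in sgControl with TPA and 177.7, 151.3 and 168.3 in DKO with TPA (interaction -1.27 ± 0.05). The helicase subunit genes MCM6 and MCM3 had interactions of -1.38 ± 0.07 and -1.07 ± 0.06. In CPM, 12 of the 38 had a difference of differences above 0, among them CDC6, the origin licensing factor (log2 -0.90 ± 0.08, CPM 11.3).

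Mitotic genes showed the same, with 37 of 40 lower (92.5%), 1 higher and a median of -0.910. KIF11, the spindle motor whose window is shown above, was at 178.1, 194.1 and 195.4 CPM in untreated sgControl, 126.7, 131.3 and 130.4 in untreated DKO, 178.8, 180.2 and 171.5 in sgControl with TPA, and 49.4, 40.4 and 38.6 in DKO with TPA. TPA left it near its untreated level in sgControl, and its interaction was -1.50 ± 0.07 (SE, adjusted p = 4.9e-19). MKI67, the proliferation marker, was at 845.6, 916.9 and 894.9 CPM in sgControl with TPA and 319.4, 285.1 and 281.4 in DKO with TPA (-1.36 ± 0.07). UBE2C was the exception, at 22 to 26.5 CPM in untreated sgControl, 0.444 to 1.19 in untreated DKO, 12.7 to 13.8 in sgControl with TPA and 0.627 to 2.00 in DKO with TPA, so that its higher interaction (1.63 ± 0.32, adjusted p = 4.8e-05) came with a low level in both DKO groups. Of 32 p53 targets and cell cycle inhibitors 12 were higher (37.5%) and 8 lower (25%), against 21.7% and 27.8% of all genes. CDKN1A, the inhibitor p21, was at 98.7, 99.9 and 96.6 CPM in sgControl with TPA and 1152, 1254 and 1287 in DKO with TPA, from 3.55 to 4.90 and 13.1 to 14.4 without it (interaction 1.94 ± 0.10). MDM2, another p53 target, had an interaction of 0.35 ± 0.09 with levels between 27.9 and 41.7 CPM in all 12 libraries.

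**Figure D4:**
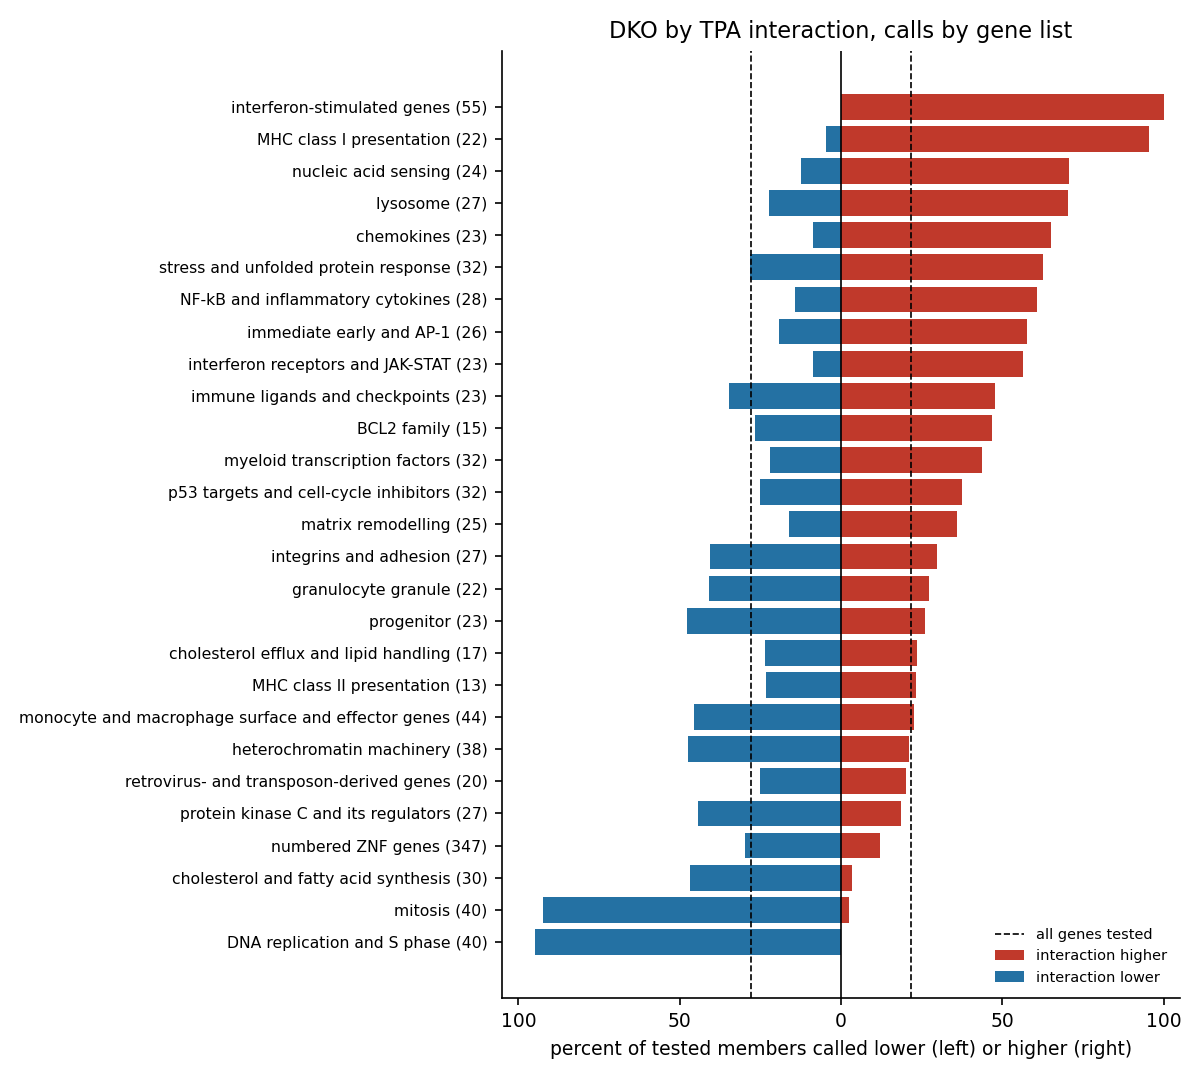
Share of tested members with a higher (right) or lower (left) interaction for 27 gene lists with at least 10 tested members, the lists of RNA quality and of other cell types left out. Dashed lines mark the shares over all genes, 21.7% higher and 27.8% lower, and interferon-stimulated genes (100% higher) and S phase genes (95.0% lower) lie at the ends.

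Stress genes were on the higher side, with 20 of 32 higher (62.5%) and 9 lower (28.1%). The cystine transporter gene SLC7A11 was at 26.9, 26.5 and 25.4 CPM in sgControl with TPA and 149.0, 165.1 and 152.1 in DKO with TPA (2.00 ± 0.13), and the endoplasmic reticulum chaperone HSPA5 was higher too (1.23 ± 0.04). Of 30 genes of cholesterol and fatty acid synthesis 1 was higher and 14 were lower (46.7%), with a median of -0.165. INSIG1, the brake on sterol synthesis, was at 191.1, 192.1 and 190.1 CPM in untreated sgControl, 820.6, 829.4 and 836.8 in untreated DKO, 182.3, 179.8 and 173.7 in sgControl with TPA, and 275.2, 281.6 and 279.1 in DKO with TPA. Untreated DKO was the highest of these 4 groups, and the interaction was -1.48 ± 0.04. Untreated SKO had a mean of 530 CPM. The desaturase gene FADS1 was lower (-1.17 ± 0.07).

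Genes of the heterochromatin machinery were lower in 18 of 38 (47.4%) and higher in 8 (21.1%), with a median of -0.132. Over all genes 27.8% were lower and 21.7% higher. UHRF1, which reads H3K9me3 and recruits the maintenance methyltransferase, had an interaction of -1.27 ± 0.06, from 128.1, 127.5 and 125.6 CPM in sgControl with TPA to 32.7, 27.0 and 28.8 in DKO with TPA, and CBX5, the reader HP1 alpha, had -1.17 ± 0.07. The methyltransferase gene SETDB1 did not pass (0.03 ± 0.08, adjusted p = 0.82), nor did the co-repressor TRIM28 (-0.09 ± 0.04, adjusted p = 0.089). Of 347 numbered ZNF genes, many of which bind repeats, 42 were higher (12.1%) and 103 lower (29.7%), near the background for lower calls. Retrovirus- and transposon-derived genes were higher in 4 (20%) and lower in 5 (25%) of 20, near the shares over all genes (21.7% and 27.8%). ERV3-1, an endogenous retroviral envelope gene, was at 0.712, 0.696 and 0.758 CPM in sgControl with TPA and 7.11, 7.77 and 5.82 in DKO with TPA (2.17 ± 0.29), and it overlaps ZNF117 (2.39 ± 0.38), so the 2 counts cannot be told apart. Repeats themselves were not analysed here.

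The single and double knockout interactions share the sgControl libraries, so their values are given side by side and only their difference was tested. The SKO interaction was called higher in 19.6% and lower in 18.1% of genes, and the DKO interaction exceeded it in 3750 genes (22.1%) and lay below it in 4659 (27.4%). Interferon-stimulated genes had a median of 1.90 in SKO and 3.54 in DKO, with 46 of 55 called in SKO, and the DKO interaction was the larger in 49 of 55. RSAD2 had 1.34 in SKO and 7.32 in DKO (difference 5.99 ± 0.18, adjusted p = 6.2e-25), IFIT1 had 5.71 and 6.15 (0.44 ± 0.14, adjusted p = 0.011), and for OAS1 the difference, 0.13, did not pass (adjusted p = 0.39). MHC class I genes had a median of 0.0319 in SKO and 1.34 in DKO, and 21 of 22 differed upwards, among them HLA-B (-0.05 and 1.47, difference 1.51 ± 0.05) and NLRC5 (0.09 and 1.98).

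S phase genes also differed between the knockouts. Their median was -0.0433 in SKO and -1.02 in DKO, with 38 of 40 lower in DKO, and MCM6 had -0.02 (adjusted p = 0.89) and -1.38 (difference -1.36 ± 0.07, adjusted p = 5.4e-18). Of the mitosis genes 36 of 40 were lower in DKO than in SKO. IL1RN had 0.07 in SKO (adjusted p = 0.62) and 3.72 in DKO, a difference of 3.65 ± 0.10. MYB had 0.41 in SKO and -1.21 in DKO. In contrast, ITGAM (-3.33 and -3.26, difference 0.07 ± 0.06, adjusted p = 0.32) and CTSG (2.62 and 2.64, difference 0.01, adjusted p = 0.89) showed no difference that passed the test. SPP1 and ERV3-1 had the larger interaction in SKO (4.24 and 3.21, differences -1.59 ± 0.29 and -1.05 ± 0.25).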

How the data were processed

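Poly(A)-selected RNA of U937 cells was sequenced, and the deposited values are raw counts of reads per gene, whole numbers that the authors did not normalize. The submitters' processing notes name fastp 0.23.4, STAR 2.7.11b, Subread 2.0.6 and the build hg38. Per the file headers, featureCounts 2.0.6 assigned the reads of the untreated libraries to GENCODE 38 gene names, each read of a pair singly and without strand, so overlapping and antisense genes cannot be told apart. The table of TPA-treated libraries carries no counting command, and its 59428 gene rows have the same names, coordinates and lengths. The 2 tables were joined by gene name, and 17 columns of other lines were not used.

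The test was edgeR 4.0.16 in R 4.3.3, with its default expression filter, TMM scaling, and 1 fit of 18 libraries in 6 groups (sgControl, SKO and DKO, with and without TPA; 12 residual degrees of freedom), without covariates. Contrasts were called at a Benjamini-Hochberg adjusted p of 0.05 in the quasi-likelihood test. A gene with 3 reads or fewer over a group is given by its reads. The fit was tested on simulated data.

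The comparison and the 37 gene lists were chosen with earlier results of these data known. Genes named by rule were SUV39H1 and SUV39H2, the 2 largest called interactions of each biology list, the 5 highest and 5 lowest of all, and the 2 largest of each pattern, from mean log2 CPM of 1, 2 and 3 upwards; some genes of the rule are not reported here, and other list members are given to show a list's range and were chosen with their values known. Alternatives were DESeq2 1.42.0 (size factors, Wald test), no filter, a higher filter, the replicate number as a block, the 12 libraries alone, chromosomes 7 and X left out, the median of each 20 Mb bin subtracted, and each library left out in turn. A term for a run code in library names, the CPM scale, and counts of list members under alternatives other than the size factors and the 12 libraries alone were chosen after seeing the data. Each sample's depth limits the precision of low counts. The floor of 3 reads covers no more than counting error, which it may understate where both reads of a pair are counted. Promoter sequences are from RefSeq (GRCh38.p14).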

Additional observations from a re-analysis of the deposited data

Results flagged for a closer look

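The interaction is itself a test of whether the DKO effect differed between untreated and TPA-treated cells, and it was called higher in 3695 and lower in 4730 genes. The interaction also differed between the double and the single knockout, with 3750 genes higher and 4659 lower in DKO, in comparisons that share the sgControl libraries. In 1243 genes the DKO effect was called in both conditions with opposite signs.

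Among the genes named by rule, those whose DKO effect was called with opposite signs with and without TPA were picked out for a closer look. Their interactions were -1.01 for SUV39H1, 12.73 for GBP1, 6.54 for TLR3, 3.72 for IL1RN, 3.47 for IL1B, 2.64 for CTSG, 3.44 for EGR1, -1.21 for MYB and -2.92 for the oxidase subunit gene NCF1, which has near-identical pseudogenes. Further values were -1.46 for the signalling adaptor CARD9, -1.89 for the BH3-only gene BIK, 1.58 for BNIP3, 1.47 for the cholesterol-esterifying enzyme gene SOAT1, -1.37 for the lipid droplet gene PLIN2 and 1.56 for the stress factor ATF5. MYBPH had -4.33 and the collagen gene COL6A3 5.93. CCL1 and CTSL had fitted values of 7.04 and 10.48 that depend on the prior count. CCL1 was at 26, 3, 159 and 2400 reads over untreated sgControl, untreated DKO, sgControl with TPA and DKO with TPA, and CTSL at 8, 0, 46 and 2556.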

How the results depend on the processing

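Counts of called genes over all genes stayed within 1.5 times their value under the alternatives run, and no named gene's interaction changed sign. With DESeq2's size factors the interaction went from 3695 higher and 4730 lower calls to 4161 and 4210. The DKO effect under TPA turned from more lower than higher calls to 5945 higher and 5452 lower. Of the counts of list members under alternatives, 50 moved by more than 1.5 times and 1282 did not; all that moved were counts of 5 or fewer, such as retrovirus- and transposon-derived genes called lower (2 to 6) and cholesterol and fatty acid synthesis genes called higher (0 to 4). With each of the 12 libraries left out in turn, 3520 to 3641 genes had a higher and 4428 to 4659 a lower interaction, and 55 interferon-stimulated genes stayed higher. DESeq2's Wald test called 4283 higher and 4287 lower, and 7942 genes were called in the same direction by both tools and 0 in opposite ones. Of the genes named by rule, ONECUT2 alone lost its call, without DKO TPA replicate 1 (1.758, adjusted p = 0.206).

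Same-numbered sgControl and DKO libraries deviated from their group means with correlations of -0.00628 to 0.0578, and different-numbered ones with -0.051 to 0.0232. Values this small over 3 replicates cannot decide whether the numbers pair the samples. Under TPA each sgControl library correlated best with its own number, and without TPA replicates 2 and 3 did and replicate 1 did not. With the replicate number as a block, 3632 genes were higher and 4659 lower in the interaction. The DKO effect had 5129 and 5174 without TPA and 5520 and 5800 with it, and the difference between DKO and SKO had 3708 and 4600. The block was coded within each treatment, so its TPA effects compare levels at replicate 1 and not group means. They had 5071 and 5076 calls in sgControl and 5624 and 5655 in DKO, and do not check the main TPA effects. No count changed by over 1.5 times.

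The design limits these results: it has 3 libraries a group and a treatment that coincides with the count table. It has 1 clone number in the untreated DKO names and none in the DKO names with TPA. Low-count genes (1067 with 3 reads or fewer in a group) have fitted values that depend on the prior count.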

Other observations

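Median DKO effects of whole chromosomes spanned a wider range than median interactions. Relative to all genes whose average log2 CPM was 2 or more, the median DKO effect on chromosome 7 was -0.419 without TPA and -0.401 with it, and on chromosome X 0.375 and 0.347. The median interaction of a chromosome lay between -0.0677 (chromosome 15) and 0.0687 (chromosome 17). Over 131 bins of 20 Mb it lay between -0.438 and 0.266.

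Single genes outside the lists of the report showed wide steps as well. COL6A3, a collagen chain, was at 3.80, 3.43 and 3.06 CPM in sgControl with TPA and 55.0, 61.8 and 58.0 in DKO with TPA, with under 1 CPM in untreated cells, and its interaction was 5.93 in DKO and -0.30 in SKO (difference 6.23). MYBPH, a myosin-binding protein gene, was at 59.1, 57.5 and 58.7 CPM in sgControl with TPA and 35.7, 34.6 and 36.3 in DKO with TPA, after 0.280 to 0.323 and 3.12 to 4.64 without TPA (interaction -4.33 ± 0.23). ANGPT4, an angiopoietin, was at 0.280 to 0.461 CPM in sgControl and 9.28 to 10.9 in DKO without TPA, and at 13.1 to 16.5 and 18.9 to 22.8 with TPA (-4.37 ± 0.23).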
